A study of Drosophila melanogaster with 24 samples.

Results

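Cytosolic ribosomal protein genes encode the proteins that, with ribosomal RNA, form the large and small subunits of the ribosome on which nuclear-encoded messages are translated. Flies that carry a single working copy of many of these genes show the Minute phenotype, with slow development and short thin bristles. Most ribosomal proteins are made in matched amounts, and a few have a second gene that is active mainly in the germline. Members were taken as all genes whose FlyBase symbol begins with RpL or RpS and whose mean was at least 1 CPM (reads scaled to the total of the library) over 18 RNA-seq libraries. The rule gave 89 of the 17611 genes counted, 53 of the large subunit and 36 of the small subunit. Of the 92 symbols with these prefixes, 3 stayed under the minimum: RpS28-like with 0.551 CPM, RpS28a with 0.265 CPM and RpL7-like with 0.00979 CPM. The members nearest to the minimum from above were RpL37-2 with 1.74 CPM and RpS10a with 1.97 CPM.

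The libraries came from whole adult w1118 flies, males and females together, in 6 groups of 3. Flies of the later groups were collected on day 14, at 21 days of age. Among them, PWFC flies had received rotenone for 7 days and then, off rotenone, a transfer of gut content from control flies (fecal microbiota transplantation, FMT). PWOFC flies had the same rotenone history without FMT. CWFP flies of the same day had taken DMSO for 7 days and then received FMT from rotenone-fed flies. CWOFP flies had taken DMSO for 7 days and were then kept on yeast-glucose medium without FMT. The earlier groups were collected on day 7, at 14 days of age: PD flies had taken 250 µM rotenone in DMSO for 7 days, and CTRL flies had taken DMSO. Rotenone inhibits complex I of the respiratory chain, and the feeding serves as a chemical model of Parkinson's disease. All groups were of the same strain and were reared on yeast-glucose medium. Because RNA came from the whole body, fewer cells of a type and less RNA per cell cannot be told apart. The study calls the 3 libraries of a group biological replicates, while the labels do not say how they were kept apart, and p-values measure the spread between these samples.

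Total counts ran between 17920498 and 29165130 per library, and the members held 8.13% to 14.4% of them. Several libraries stood apart from their groups. CTRL replicate 2 had the highest member share of its group, and CWOFP replicate 1 had the highest of all 18 libraries. CWFP replicate 1 had the lowest sum over a list of 24 testis markers, 50.1 CPM against 141 to 1887 CPM in the other libraries. CWFP replicate 1 also had the lowest sum over 14 accessory gland markers, 38.8 CPM.

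RpL32, long known as Rp49, is a large-subunit protein whose message is a common reference in fly RT-qPCR, and the study lists primers for it. It lies on the minus strand of chromosome 3R (3R:30045229-30046161, BDGP6) and has 796 bases of exon, none shared with another gene. The primers are shown because they define the part of a member that an assay outside these libraries reads, and no base is capitalised.
Rp49 forward primer: gcccaagggtatcgacaaca
Rp49 reverse primer: acctccagctcgcgcacgtt

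Ribosomal protein genes were among the most abundant messages in the fly: 72 of the 89 members stood within the 200 genes of highest mean CPM. They were spread over the genome, with 22 on 3R, 21 on 2R, 17 on 2L, 14 on 3L, 14 on X and 1, RpS3A, on 4. Levels of different genes were compared per kilobase of exon (CPM per kb). RpL27A, a large-subunit protein, was highest with 3140 CPM per kb, followed by the acidic stalk proteins RpLP2 with 2766 CPM per kb and RpLP1 with 2656 CPM per kb. RpS10a with 3.26 CPM per kb, RpL37-2 with 4.13 CPM per kb and RpL22-like with 4.17 CPM per kb were lowest, and each is a paralogue of an abundant gene. The counting step is not stated to have used strand, and 30 members share exonic bases with another gene. The overlap passed 10% of the exon length for 10 of them, most of all for RpS9 with 50.3% and RpL23A with 48.4%. In addition, 27 members hold 67 small nucleolar RNA genes within their introns.

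The share of counts on the 89 members differed more between libraries of some groups than between groups. It was 9.94%, 9.58% and 10.01% in PWFC flies, against 9.9996%, 8.74% and 10.56% in PWOFC flies. It was 11.61%, 13.33% and 11.72% in CWFP flies, against 14.36%, 11.12% and 9.38% in CWOFP flies. It was 12.69%, 13.32% and 10.94% in PD flies, against 8.13%, 12.76% and 9.43% in CTRL flies. The groups of each of these pairs overlapped, and the CWOFP and CTRL libraries were the most spread, with means of 11.6% ± 2.53 in CWOFP flies and 10.1% ± 2.39 in CTRL flies, against 9.85% ± 0.229 in PWFC flies (SD, n = 3 each). PWOFC flies had a mean of 9.77% ± 0.930, below that of PD flies with 12.3% ± 1.23, and here all 3 PWOFC libraries were below all 3 PD libraries.

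**Figure D1:**
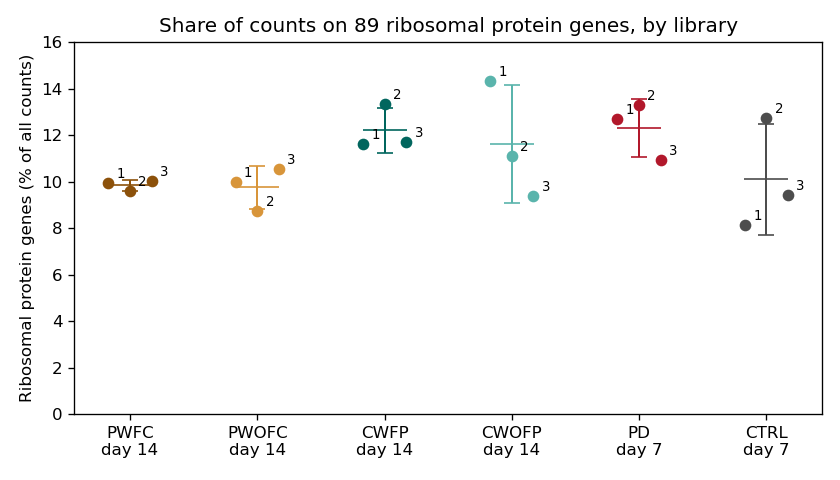
Share of all counts on the 89 ribosomal protein genes (% of the library, vertical axis) in each library, by group. Points are libraries numbered by replicate, and bars show the mean ± SD of 3. The 3 PWOFC libraries lie between 8.74% and 10.56%, under the 3 PD libraries at 10.94% to 13.32%.

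The members moved together. The ratio of summed large-subunit to summed small-subunit counts lay between 1.62 and 1.68 in all 18 libraries. It was 1.68 ± 0.00491 in PWOFC flies and 1.67 ± 0.00974 in PD flies, and was most spread in CWFP flies with 1.64 ± 0.0326 and PWFC flies with 1.66 ± 0.0308 (SD, n = 3 each). Most members varied little: the median SD of log2 CPM over the 18 libraries was 0.282 for members, against 0.415 for the other genes of at least 1 CPM, and 79 of the 89 members were under that value. RpL4 (SD 0.154), RpL22 (SD 0.162) and RpL3 (SD 0.166), all core large-subunit proteins, varied least. CTRL replicate 1 held the lowest CPM of 51 members and CWOFP replicate 1 held the highest CPM of 54 members.

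A few members did not follow the rest. The SD of log2 CPM was highest for RpL22-like (1.59), RpL10Aa (1.51) and RpL37-2 (1.21). RpL22-like is a testis-enriched paralogue of RpL22 in published work on flies. Pearson's r between a member and the mean of all members over the 18 libraries, given as a description, was lowest for RpLP0-like (-0.22) and RpS5b (-0.17). The 5 other genes most like the members' mean were SLIRP2 (r = 0.959), cl (r = 0.953), Nubp2 (r = 0.939), CG42813 (r = 0.938) and CG8204 (r = 0.938), over the same 18 libraries and so sharing their depth and composition.

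**Figure D2:**
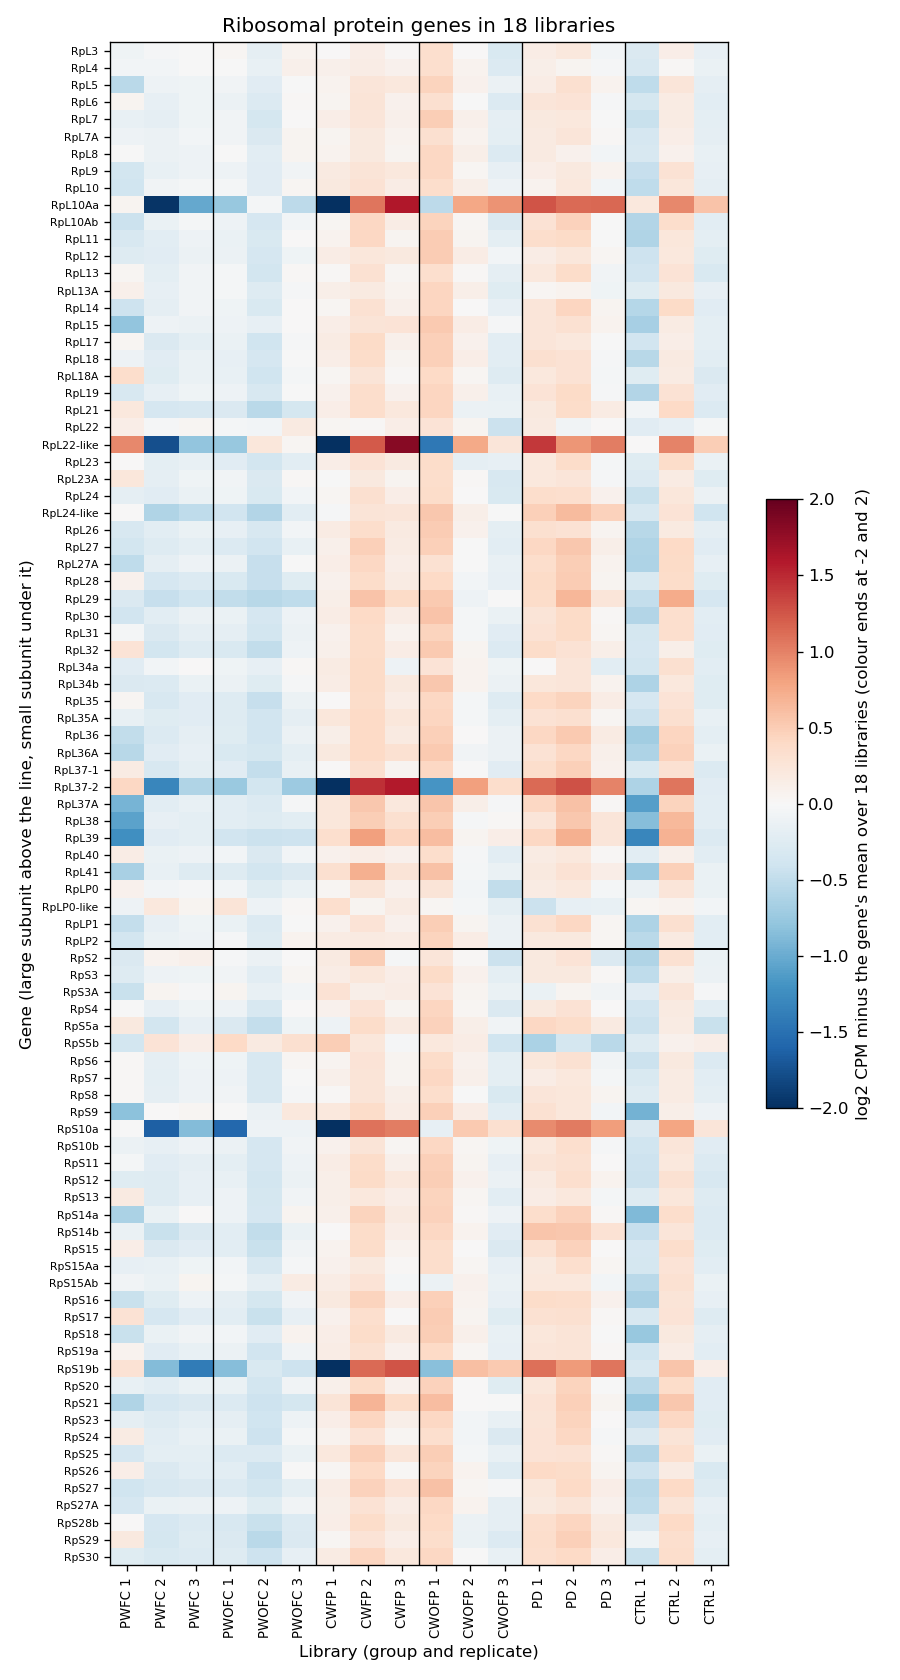
log2 CPM of each of the 89 members (rows, large subunit above the line) minus its mean over 18 libraries, in each library (columns, by group). Most rows change colour together, while RpL10Aa, RpL22-like, RpL37-2, RpS10a and RpS19b form dark rows that reach their lowest level in CWFP replicate 1, and RpS5b runs against the other rows in PD flies.

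The members are short, with a median of 903 bases of exon (288 to 3835), and the shortest of the other genes often shifted between libraries with the same sign. The median log2 deviation of the 594 other genes under 600 bases, from each gene's own mean over the 18 libraries, had the same sign as that of the members in 14 of 18 libraries. In PD libraries the members stood at 0.25, 0.33 and 0.03 and the other short genes at 0.66, 0.62 and 0.37. In CTRL libraries the members stood at -0.43, 0.27 and -0.21 and the other short genes at -0.21, 0.59 and 0.02. The largest gap was in CWFP replicate 1, where the members stood at 0.11 and the other short genes at -0.88. The median of the 2119 other genes over 4000 bases had the opposite sign to that of the members in 12 of 18 libraries. The 8755 other genes of 600 to 4000 bases, a range that holds most members, shifted less than the members. Their median stayed between -0.099 and 0.16 in the 18 libraries. It was 0.057 in CTRL replicate 1, where the members stood at -0.43, and -0.036 in CWOFP replicate 1, where the members stood at 0.42. It had the sign of the members in others, as in the PD libraries with 0.11, 0.042 and 0.085. The other short genes were lowest in CWFP replicate 1 (-0.88), PWOFC replicate 1 (-0.69) and PWFC replicate 2 (-0.66). The testis markers summed to 50.1, 317 and 141 CPM in these libraries. They summed to 1202 and 1887 CPM in CWFP replicate 2 (0.67) and PD replicate 1 (0.66), where the short genes were highest. Scaling on short genes, used below, is therefore not known to be free of tissue content. The part of gene length or of tissue content in the results was not tested.

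**Figure D3:**
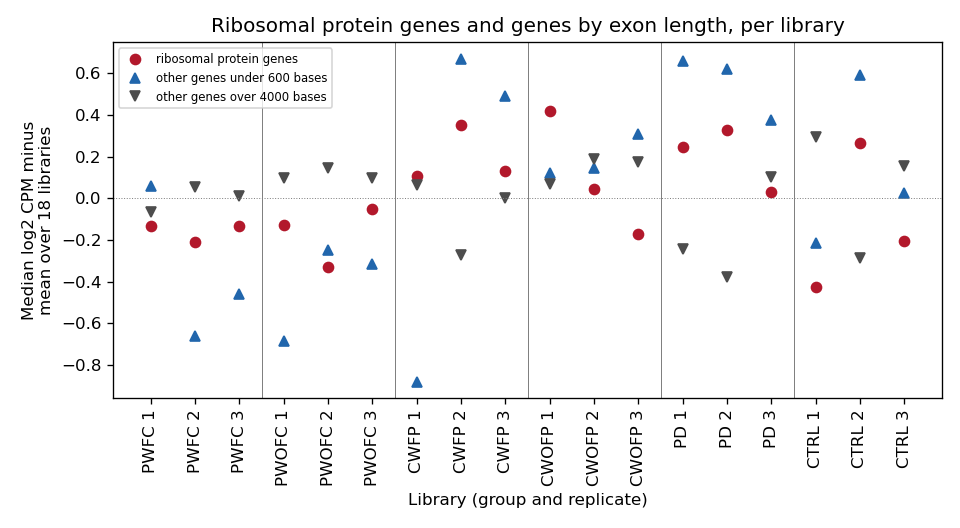
Median log2 CPM of a gene class minus each gene's mean over 18 libraries (vertical axis), by library, for the 89 members, 594 other genes under 600 bases of exon and 2119 other genes over 4000 bases. Members and other short genes have the same sign in 14 of 18 libraries, and CWFP replicate 1 is the widest exception.

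The comparison of PD with CTRL flies addresses what 7 days of rotenone did before any FMT. No member passed an adjusted p of 0.05 in edgeR's quasi-likelihood test across all 12643 genes tested, of which 3.17% passed. Before adjustment 6 members had p under 0.05, against 37.6% of all genes, and DESeq2 called 2, RpS19b and RpS5b, or 2.25% of the members, where it called 18.5% of all genes. The log2 fold change was positive for 86 of the 89 members, against 52.8% of all genes, with a median of 0.27 for members and 0.046 for all genes. With TMM factors set on genes under 1200 bases, 53 members were positive, the median of the members was 0.016 and that of all genes -0.24. The members stood above the median of all genes by 0.23 and 0.25 under these scalings. A change of scaling shifts members and all genes alike, so this difference could barely move. The members nearest to passing were RpS19b, RpS5b and RpL24-like, and these did not overlap between the groups after TMM scaling. Of the 89 members 5 did not overlap, with RpS19b, RpL24-like and RpL10Aa above and RpS5b and RpLP0-like below, against 39% of all genes.

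RpS5b is the paralogue of RpS5a, a small-subunit protein near the mRNA exit, and is known as the ovary-enriched copy. It had 411, 498 and 438 CPM in PD flies, against 534, 675 and 700 CPM in CTRL flies. All 3 PD libraries were lower, with a log2 fold change of -0.54 (SE 0.18, adjusted p = 0.075, edgeR), which did not pass. RpS5a went the other way in CPM, with 1356, 1307 and 1146 CPM in PD flies, against 757, 1137 and 743 CPM in CTRL flies. RpS19b, a germline-enriched paralogue of RpS19a, had 8.21, 6.89 and 8.04 CPM in PD flies, against 3.06, 5.59 and 4.19 CPM in CTRL flies, with a log2 fold change of 0.81 (SE 0.25, adjusted p = 0.066, edgeR). RpL24-like, the fly counterpart of a yeast factor that serves in assembly of the large subunit, had 298, 333 and 295 CPM in PD flies, against 172, 259 and 162 CPM in CTRL flies, with a log2 fold change of 0.61 (SE 0.21, adjusted p = 0.079, edgeR).

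Markers of several tissues differed between these groups. Of 23 testis markers tested 2 passed as higher in PD flies, with a sum of 1401 to 1887 CPM in PD flies, against 781 to 1047 CPM in CTRL flies. Of 13 ovary-germline markers 5 passed as lower, with a sum of 1174 to 1652 CPM in PD flies, against 1934 to 3694 CPM in CTRL flies, and 7 of 14 eggshell genes passed as lower. The accessory gland, a male tissue, did not follow the testis: of its 13 markers tested 10 had a negative log2 fold change and 1 passed as lower, with a sum of 366 to 478 CPM in PD flies, against 512 to 639 CPM in CTRL flies. All 4 markers of the female fat body and 5 of 12 enterocyte markers passed as lower, while 5 of 10 photoreceptor markers and 1 enterocyte marker passed as higher. With factors from genes under 1200 bases no testis, ovary-germline or photoreceptor marker passed, while 7 eggshell and 3 female fat body markers still did. No testis, ovary-germline or eggshell marker was at 0 in these 6 libraries, and the part of these tissues in the levels of the paralogues was not tested.

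This comparison turned on CTRL replicate 2. Without it, 57 members passed as higher in PD flies and 1 as lower, among 12806 genes of which 41.9% passed, 21.1% as higher and 20.7% as lower. With that library left out and the scaling set on genes under 1200 bases, 1 member passed as higher and 3 as lower, where 551 of all 12806 genes passed as higher and 4551 as lower, and the median of all genes was -0.34, against 0.10 with factors from all genes. The median of the members relative to that of all genes was 0.42 without CTRL replicate 2, and 0.41 when both changes were made. The scaling could barely move this difference, and without CTRL replicate 1 it was 0.11. RpL32 had 1338, 1278 and 1125 CPM in PD flies, against 821, 1131 and 882 CPM in CTRL flies. The groups overlapped only through CTRL replicate 2 and PD replicate 3, and the log2 fold change was 0.37 (SE 0.19, adjusted p = 0.17, edgeR).

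The comparisons of day 14 with and without FMT address whether a transfer of gut content moved these genes in flies of the same history. No member passed in PWFC against PWOFC flies or in CWFP against CWOFP flies, and the share of all genes that passed was 0% in each by edgeR. Before adjustment 0 members had p under 0.05 in either, where 4.12% and 2.16% of all genes did, and DESeq2 called 0 members and 0.756% and 0.307% of all genes. The median log2 fold change of the members was 0.020 in PWFC against PWOFC flies, where all genes had -0.042, and 0.047 in CWFP against CWOFP flies, where all genes had -0.014. With factors from genes under 1200 bases these medians turned to -0.0078 and -0.080, and in CWFP against CWOFP flies 69 of the 89 members were then negative. Leaving out 1 library in CWFP against CWOFP flies gave a median of the members from -0.031, without CWFP replicate 2, to 0.29, without CWOFP replicate 1, where 8 members had p under 0.05 before adjustment and none passed after it, and it was 0.071 without CWFP replicate 1. Between PWFC and PWOFC flies 7 members did not overlap after TMM scaling, all higher in PWFC flies, where 6.44% of all genes did so. They were RpLP0, RpL21, RpS28b, RpL29, RpS29, RpL23 and RpL40. RpL40, a fusion of ubiquitin with a large-subunit protein, had 1094, 901 and 927 CPM in PWFC flies, against 949, 807 and 956 CPM in PWOFC flies. For RpL40, as for RpL21, the groups overlapped without TMM factors.

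The members with the smallest p in each FMT comparison were far from passing. RpL21 had 1310, 895 and 913 CPM in PWFC flies, against 929, 778 and 889 CPM in PWOFC flies, and PWFC replicate 1 alone stood clear of the rest (log2 fold change 0.28, SE 0.15, adjusted p = 0.99, edgeR). RpLP0 of the acidic stalk had a log2 fold change of 0.17 and RpL23 one of 0.17. RpLP0-like, RpS15Ab and RpS2 were nearest in CWFP against CWOFP flies, with log2 fold changes of 0.23, 0.17 and 0.24 and an adjusted p of 0.9999 each by edgeR, and no member was without overlap there, against 6.16% of all genes. The difference between the FMT effects in flies with and without a rotenone history, tested as an interaction, passed for 0 members and 0% of all genes by edgeR, with 0 members and 2.38% of all genes at p under 0.05 before adjustment and 0 members by DESeq2.

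CWFP replicate 1 held the lowest levels of several paralogues. RpL22-like had 0.0871, 8.37 and 12.7 CPM in CWFP flies, against 1.34, 6.08 and 4.25 CPM in CWOFP flies, and the first value rests on 2 reads. RpL10Aa, a paralogue of the large-subunit gene RpL10Ab, had 0.261, 15.9 and 22.8 CPM in CWFP flies, against 5.28, 12.9 and 14.1 CPM in CWOFP flies. RpL37-2 had 3 reads in CWFP replicate 1, against 75 and 81 in the other CWFP libraries. The testis-marker list summed to 50.1, 1202 and 1775 CPM in CWFP flies, against 507, 991 and 1015 CPM in CWOFP flies, and 2 of its 24 markers were at 0 in CWFP replicate 1. The accessory gland list summed to 38.8, 1284 and 1797 CPM in CWFP flies, against 424, 658 and 768 CPM in CWOFP flies. Both lists of male tissue were thus low in CWFP replicate 1. The part of testis RNA, or of male tissue as a whole, in the levels of these paralogues was not tested.

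**Figure D4:**
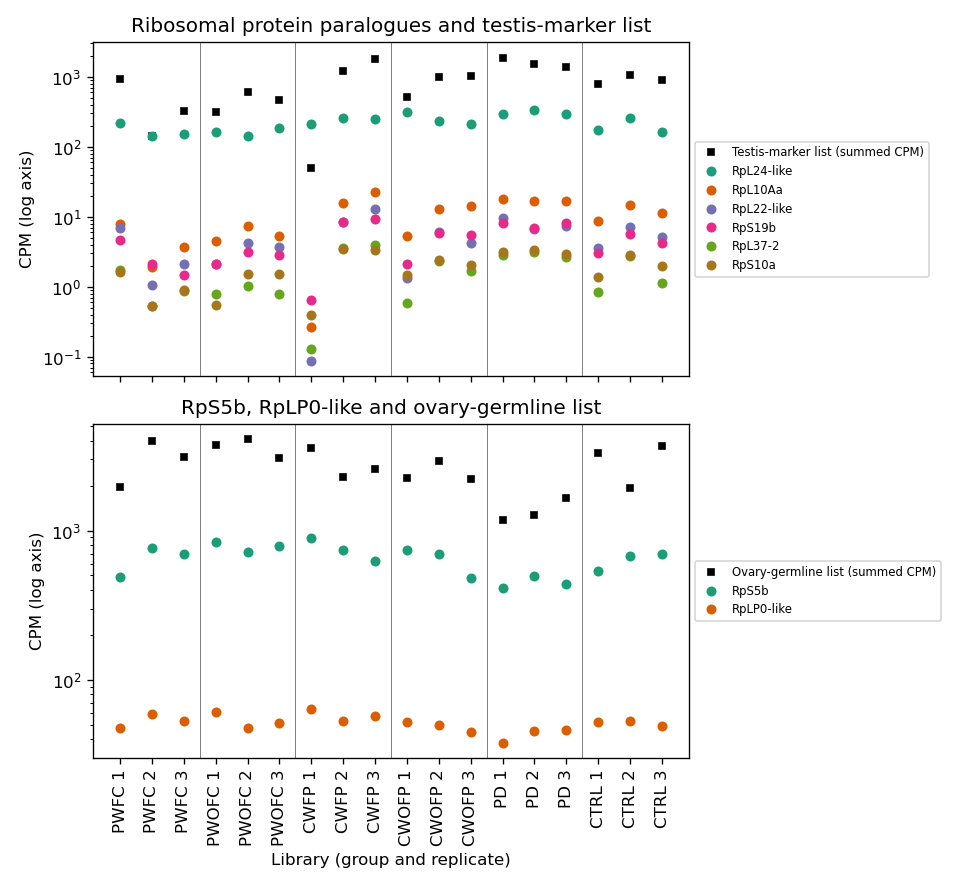
CPM (log axes) of 6 paralogues with the summed testis-marker list (upper panel) and of RpS5b and RpLP0-like with the summed ovary-germline list (lower panel), in 18 libraries by group. RpL22-like, RpL10Aa, RpL37-2, RpS19b and RpS10a reach their lowest points in CWFP replicate 1, where the testis list is at 50.1 CPM. RpS5b is lowest in PD replicate 1, at 411 CPM, where the ovary list is at 1174 CPM. CWOFP replicate 3 and PWFC replicate 1 lie under PD replicate 2 for RpS5b, with the ovary list at 2216 and 1964 CPM.

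PWOFC flies were set against CWOFP flies to ask what remained 7 days after rotenone was withdrawn, without FMT. No member passed in edgeR, where 0.0407% of all genes did. Before adjustment 5 members had p under 0.05, against 25.2% of all genes, and DESeq2 called 2, RpL39 and RpL29, or 2.25% of the members, where it called 8.02% of all genes. The log2 fold change was above 0 for 5 of 89 members and for 45.5% of all genes, with a median of -0.27 for members and -0.046 for all genes. With factors set on genes under 1200 bases 34 members were above 0, with a median of -0.039 for members and 0.19 for all genes. Without CWOFP replicate 1 the median of the members was 0.033 and that of all genes 0.040. Of the members, 11 did not overlap and all of these were lower in PWOFC flies, against 15.3% of all genes that were lower without overlap.

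RpL39 and RpL29, small basic proteins of the large subunit, were nearest to passing. RpL39 had 123, 119 and 121 CPM in PWOFC flies, against 248, 167 and 176 CPM in CWOFP flies (log2 fold change -0.67, SE 0.18, adjusted p = 0.13, edgeR). RpL29 had 196, 189 and 195 CPM in PWOFC flies, against 398, 259 and 275 CPM in CWOFP flies (log2 fold change -0.66, SE 0.20, adjusted p = 0.14, edgeR). The PWOFC libraries were within a narrow range for both genes, and CWOFP replicate 1 was the highest in each. RpL24-like came next, with 165, 143 and 185 CPM in PWOFC flies, against 312, 233 and 212 CPM in CWOFP flies (log2 fold change -0.59, SE 0.19, adjusted p = 0.15, edgeR).

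Between CWOFP and CTRL flies, which never had rotenone and differ in day, age and time since DMSO, no member passed in edgeR, where 2.03% of all genes did. Before adjustment 0 members had p under 0.05, against 11.5% of all genes, and DESeq2 called 0 members and 4.28% of all genes. The median log2 fold change of the members was 0.17 and that of all genes 0.0029, and no member was without overlap, against 18.2% of all genes. RpL15, RpS5a and RpL24-like had the smallest p, with log2 fold changes of 0.39, 0.36 and 0.32. The median of the members was -0.065 without CWOFP replicate 1, 0.38 without CWOFP replicate 3, 0.012 without CTRL replicate 1 and 0.42 without CTRL replicate 2, where 87 of the 89 members were positive, and no member passed in any of these fits. RpL32 had 1495, 1076 and 866 CPM in CWOFP flies, against 821, 1131 and 882 CPM in CTRL flies, a spread within each group that covered the difference between them.

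PWOFC flies against PD flies, later against earlier in flies that had 7 days of rotenone, gave by far the most calls. PWOFC flies were off rotenone at 21 days of age and PD flies on it at 14 days, so withdrawal and age cannot be told apart. By edgeR 35 members passed as lower in PWOFC flies and 2 as higher, where 64.1% of all genes passed, 34% as lower and 30% as higher, and the members' share was 41.6%. The groups did not overlap for 31 members below and 2 above, against 71.4% of all genes. The median log2 fold change was -0.31 for members and -0.091 for all genes, and it was above 0 for 5 of the 89 members and for 46.8% of all genes. Without PD replicate 2 or without PWOFC replicate 2, 20 members passed, or 22.5%, where 58.3% and 60.5% of all genes did. Which members passed depended on the scaling: with factors set on genes under 1200 bases, 5 members passed as lower and 24 as higher, where 2299 of the 12436 genes tested passed as lower and 5638 as higher. The median of the members was then 0.21 and that of all genes 0.42, and 0 of the 35 lower members passed as higher. Relative to the median of all genes the members stood at -0.22 with TMM on all genes and at -0.21 with TMM on short genes. This difference could barely move with the scaling, which shifts members and all genes alike. It was -0.12 without the low count filter, -0.12 with DESeq2, -0.11 without PD replicate 2 and -0.32 without PD replicate 3. Factors computed without the members gave 36 lower and 2 higher. RpS25, the called member of smallest decrease, had a log2 fold change of -0.35 (adjusted p = 0.044, edgeR), and 0.18 with factors from short genes.

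**Figure D5:**
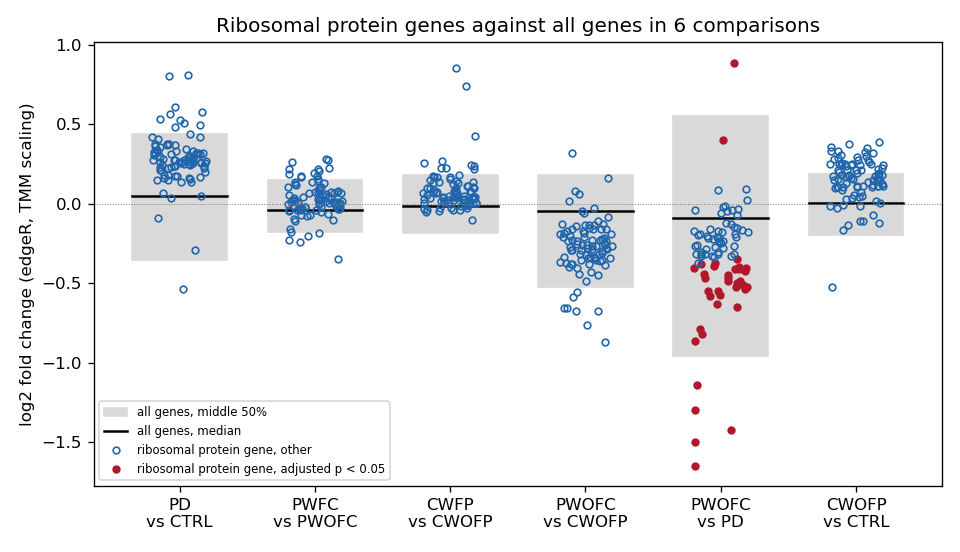
log2 fold change of each of the 89 members (points) in 6 comparisons, with the median (line) and middle 50% (grey) of all genes tested. Filled points passed an adjusted p of 0.05 in edgeR, which occurred only in PWOFC against PD flies, where the members' median was -0.31 and that of all genes -0.091.

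Under all 6 scalings of the libraries that were compared, 5 members passed as lower and 1 as higher. The 5 were RpL37-2, RpL10Aa, RpS19b, RpS10a and RpL22-like, paralogues of abundant genes, and the 1 was RpS5b. RpL37-2 had 0.785, 1.01 and 0.790 CPM in PWOFC flies, against 2.88, 3.15 and 2.62 CPM in PD flies, and its log2 fold change was -1.65 (SE 0.29, adjusted p = 0.00079, edgeR). RpL10Aa (3R:15037366-15038149) had 4.48, 7.34 and 5.22 CPM in PWOFC flies, against 18.05, 16.6 and 16.8 CPM in PD flies (log2 fold change -1.50, SE 0.22, adjusted p = 0.00037, edgeR). RpS19b (3R:23932729-23933530) had 2.12, 3.09 and 2.85 CPM in PWOFC flies, against 8.21, 6.89 and 8.04 CPM in PD flies (log2 fold change -1.43, SE 0.23, adjusted p = 0.00055, edgeR). For each of these the groups did not overlap, but in the fit of all 18 libraries, RpL37-2, RpL10Aa and RpS19b did not pass. No member passed as lower in that fit with a log2 fold change under -1, where 5 did in the fit of PWOFC and PD libraries alone.

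The abundant partners of these paralogues were read from the same fit. RpL10Ab (log2 fold change -0.33), RpS19a (-0.27), RpS10b (-0.26) and RpL22 (0.084) did not pass, while RpL37-1 (-0.50, adjusted p = 0.016, edgeR) passed as lower. With factors from genes under 1200 bases RpL37-1 no longer passed (0.032, adjusted p = 0.86, edgeR), RpL22 passed as higher (0.60), and RpL10Ab (0.21), RpS19a (0.25) and RpS10b (0.27) were above 0 without passing. RpL10Ab had 1279, 1093 and 1318 CPM in PWOFC flies, against 1675, 1880 and 1360 CPM in PD flies, and RpS19a had 1126, 944 and 1166 CPM in PWOFC flies, against 1448, 1459 and 1250 CPM in PD flies. RpL22 had 1167, 1146 and 1347 CPM in PWOFC flies, against 1350, 1133 and 1194 CPM in PD flies, and here the groups overlapped. RpL22-like had 2.12, 4.199 and 3.69 CPM in PWOFC flies, against 9.56, 6.66 and 7.29 CPM in PD flies (log2 fold change -1.14, adjusted p = 0.0046, edgeR). RpS10a had 12, 32 and 35 reads in PWOFC flies, against 80, 87 and 66 reads in PD flies, while its partner RpS10b had 1100, 949 and 1137 CPM in PWOFC flies, against 1374, 1511 and 1176 CPM in PD flies.

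Markers of the testis moved with these paralogues. Of the 23 testis markers tested, 20 passed as lower in PWOFC flies and none as higher, under each of the 6 scalings. The list summed to 317 to 614 CPM in PWOFC flies, against 1401 to 1887 CPM in PD flies, and no marker was at 0 in these libraries. Of the lists for other tissues, 8 of 10 photoreceptor markers, 11 of 12 neuron markers and 6 of 8 muscle markers tested passed as lower in PWOFC flies. With factors from short genes 8, 5 and 0 passed as lower. Others went up: the remaining neuron marker, all 4 female fat body markers and 10 of 14 eggshell genes passed as higher. Of 12 enterocyte markers 4 passed as lower and 1 as higher. Of 13 accessory gland markers 3 passed as lower and 3 as higher. The part of testis RNA or of other tissues in the paralogues' fall was not tested.

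RpS5b (3R:14900432-14901563) rose. It had 835, 717 and 791 CPM in PWOFC flies, against 411, 498 and 438 CPM in PD flies, with a log2 fold change of 0.89 (SE 0.14, adjusted p = 0.00052, edgeR). RpS5a had 832, 728 and 961 CPM in PWOFC flies, against 1356, 1307 and 1146 CPM in PD flies (log2 fold change -0.51, adjusted p = 0.010, edgeR), but with factors from short genes its log2 fold change was 0.014 (adjusted p = 0.94, edgeR). RpLP0-like, the fly counterpart of a yeast factor that prepares the stalk of the large subunit, had 60.8, 47.3 and 51.6 CPM in PWOFC flies, against 37.9, 45.2 and 46.0 CPM in PD flies, with a log2 fold change of 0.40 (SE 0.15, adjusted p = 0.039, edgeR). Its call was lost with upper-quartile scaling, total counts, the fit of all 18 libraries and the replicate block, and without PD replicate 1, PD replicate 3 or PWOFC replicate 1. Of 13 ovary-germline markers 12 passed as higher in PWOFC flies, and their sum was 3078 to 4076 CPM in PWOFC flies, against 1174 to 1652 CPM in PD flies. The part of ovary RNA in these rises was not tested.

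Of the other paired copies, RpS14b passed as lower (log2 fold change -0.65, adjusted p = 0.0032, edgeR) and RpS14a, RpL34a, RpL34b, RpS15Aa and RpS15Ab did not pass. With factors from short genes RpS14b no longer passed (-0.13, adjusted p = 0.58, edgeR), while RpL34a (0.52, adjusted p = 0.029, edgeR) and RpS15Ab (0.47, adjusted p = 0.041, edgeR) passed as higher. RpS14a had 706, 595 and 787 CPM in PWOFC flies, against 963, 1035 and 765 CPM in PD flies, and RpS14b had 205, 169 and 215 CPM in PWOFC flies, against 349, 345 and 291 CPM in PD flies. RpL34b had 768, 703 and 824 CPM in PWOFC flies, against 979, 985 and 878 CPM in PD flies. RpS27A, a fusion of ubiquitin with a small-subunit protein, had 1129, 1023 and 1155 CPM in PWOFC flies, against 1389, 1456 and 1288 CPM in PD flies, and did not pass (log2 fold change -0.23, adjusted p = 0.14, edgeR). RpL32 had 842, 738 and 966 CPM in PWOFC flies, against 1338, 1278 and 1125 CPM in PD flies, and passed as lower with a log2 fold change of -0.47 (SE 0.15, adjusted p = 0.015, edgeR), but with factors from short genes its log2 fold change was 0.055, and its call was lost with DESeq2 and in the fit of all 18 libraries.

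Genes that make or drive ribosomes were read from lists beside the members. Ribosome biogenesis genes act in the nucleolus on rRNA and preribosomes. Of the 24 in the list, 17 passed as higher in PWOFC flies and 1 as lower. Nop60B, the pseudouridine synthase of box H/ACA particles, had 574, 537 and 512 CPM in PWOFC flies, against 182, 245 and 281 CPM in PD flies (log2 fold change 1.29, adjusted p = 0.00023, edgeR). nop5 (0.89), Nopp140 (0.99) and Surf6 (0.93), also of the nucleolus, rose on the log2 scale. With upper-quartile scaling the list had 10 higher and 2 lower, and with factors from short genes 22 higher and 0 lower.

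Of 38 translation factors, 12 passed as higher in PWOFC flies, near the 30% of all genes that did, and 1 as lower, and with factors from short genes 32 passed as higher. The 1 was eEF1alpha2, an elongation factor isoform, with 79.2, 92.2 and 110 CPM in PWOFC flies, against 308, 233 and 270 CPM in PD flies (log2 fold change -1.44, adjusted p = 0.00012, edgeR), and eRF3, a release factor, rose by 0.94. Of 19 growth regulators 11 passed as higher and 3 as lower. Thor, the translation inhibitor 4E-BP, had 183, 170 and 269 CPM in PWOFC flies, against 527, 553 and 518 CPM in PD flies (log2 fold change -1.28, adjusted p = 0.00025, edgeR). REPTOR-BP, a partner of a transcription factor held back by TORC1, fell (-1.001), while Trf2 (1.12) and Dref (0.98), which act at promoters of growth genes, rose. These 4 were named because they had the smallest p of the list. REPTOR, the transcription factor meant, itself passed as higher (0.45). So did Mnt (2.23), Tsc1 (0.90) and gig (0.36), beside mTor (0.48) and S6k (0.60). The calls of this list were thus not read as growth moving 1 way. Of 72 mitochondrial ribosomal protein genes 10 passed as higher and 0 as lower, but with upper-quartile scaling 0 were higher and 13 lower, and with factors from short genes 51 were higher.

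In PD against CTRL flies the lists gave few calls. Thor had 527, 553 and 518 CPM in PD flies, against 235, 299 and 158 CPM in CTRL flies, and rose (log2 fold change 1.17, adjusted p = 0.039, edgeR). eEF1alpha2 rose by 0.92 on the log2 scale (adjusted p = 0.025, edgeR), and Surf6 fell by 0.78 (adjusted p = 0.0496, edgeR). These were the 3 calls of the translation factor, ribosome biogenesis and growth regulator lists, and none of the 72 mitochondrial ribosomal protein genes passed. With factors from genes under 1200 bases 0 genes of these lists passed.

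Whether the difference of PWOFC from CWOFP flies itself differed from that of PD from CTRL flies was tested as an interaction of rotenone and day. Of the 89 members 3 passed as lower and 2 as higher, where 37.1% of all genes passed, 13.8% as lower and 23.4% as higher. The median was -0.43 for members and -0.011 for all genes. RpL24-like had -1.07 (SE 0.30, adjusted p = 0.019), RpS19b -1.36 (SE 0.48, adjusted p = 0.042) and RpL10Aa -1.28 (SE 0.45, adjusted p = 0.044), all by edgeR. RpS5b had 0.98 (SE 0.26, adjusted p = 0.017) and RpLP0-like 0.58 (SE 0.20, adjusted p = 0.038). Without CTRL replicate 2 there were 31 calls, or 34.8% of the members, where 46.0% of all genes passed. Without CWOFP replicate 1 there were 6, and the median of the members was -0.20. Leaving out CTRL replicate 1 or 3, PD replicate 1 or 2, CWOFP replicate 2, or PWOFC replicate 1 or 3 left 1 to 3 calls. Without CTRL replicate 1, 22.8% of all genes passed.

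RpL32 was compared with other common reference genes of the fly over the 18 libraries. Its highest level was 2.03 times its lowest, with an SD of log2 CPM of 0.304. eEF1alpha1, an elongation factor, varied least of the 9 genes (SD 0.139), ahead of alphaTub84B (SD 0.164) and Gapdh1 (SD 0.183). Gapdh2 (SD 0.328), Tbp (SD 0.383) and Polr2A (SD 0.422) varied more than RpL32.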

How the data were processed

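The deposited counts were whole numbers of reads per FlyBase gene ID, made by the authors from poly(A)-selected RNA-seq of whole flies. The study's methods name cutadapt, HISAT2, featureCounts and DESeq2 with the dm6 genome, and the submitters' processing notes also list StringTie 1.3.1 and DESeq2 1.36.0. Symbols and exon lengths came from the BDGP6 annotation. The members and lists were chosen with earlier results of these data known. Of 24 labelled samples, 6 that received FMT from human donors were not analysed here.

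Each comparison used the 6 libraries of its 2 groups (12 for an interaction), genes kept by filterByExpr, TMM factors and the quasi-likelihood test of edgeR 4.0.16 in R 4.3.3, with Benjamini-Hochberg adjustment over all genes kept and a call at 0.05. The fit was also run on data simulated for PD against CTRL and CWFP against CWOFP flies only. Few genes were changed there, so that run cannot speak to the choice of scaling in PWOFC against PD flies. DESeq2 1.42.0 was an alternative. Standard errors were the absolute log2 fold change over the square root of F. CPM used the total count of a library, without TMM factors, and overlap between groups was read from TMM-scaled CPM. Sums of lists are of CPM.

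Named members were RpL32, the 3 highest and 3 lowest log2 fold changes among those called in a comparison (or the 3 smallest p), paralogues and ubiquitin fusions, the ends of the level and of the SD, and up to 4 called genes per list. The labels name no pairing of replicates. Deviations of same-numbered libraries correlated at 0.26 to 0.49 in CWFP and CWOFP flies, the only pair of groups where all 3 were positive. Libraries of different number reached 0.51 (PWFC replicate 2 with PWOFC replicate 1), so these values do not establish a pairing. Alternatives were RLE, upper-quartile and total-count scaling, factors without the members, no low count filter, DESeq2, a fit of all 18 libraries, a replicate block and leaving out each library. Scaling on genes under 1200 bases was added after the data were seen.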

Additional observations from a re-analysis of the deposited data

Results flagged for a closer look

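The rotenone effect differed between the days for 5 members in a test of that difference, PWOFC over CWOFP minus PD over CTRL on the log2 scale. Of all genes 37.1% passed this test. RpS19b had -1.36, RpL10Aa -1.28 and RpL24-like -1.07, and RpLP0-like had 0.58 and RpS5b 0.98. With factors from genes under 1200 bases the calls of RpS19b (-1.05), RpL10Aa (-0.96) and RpL24-like (-0.76) were lost, and without the low count filter those of RpS19b and RpL10Aa. The call of RpLP0-like was lost with RLE, upper-quartile and total-count scaling and with the replicate block, and that of RpS5b with upper-quartile scaling (0.61). In the fit of all 18 libraries none of the 5 passed. Leaving out 1 of the 12 libraries lost the call of RpS5b without PD replicate 1 or PD replicate 3, while that of RpLP0-like was kept only without CTRL replicate 2, CWOFP replicate 1, PWOFC replicate 2 or PWOFC replicate 3.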

How the results depend on the processing

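Counts of called members moved with the library left out, the scaling and the model. In PWOFC against PD flies, where 37 members passed, upper-quartile scaling gave 77, total counts 56, DESeq2 22 and a fit of all 18 libraries 7. These were 86.5%, 62.9%, 24.7% and 7.87% of the members, where 62.9%, 63.1%, 50.3% and 37.1% of all genes passed. Leaving out 1 library gave 20 to 54. The lowest value came without PD replicate 2 or PWOFC replicate 2. Upper-quartile scaling moved the split of all genes called to 2383 higher and 5444 lower, against 3735 higher and 4231 lower, and the median of all genes to -0.39, against -0.091. In PD against CTRL flies DESeq2 gave 2 calls, leaving out 1 library gave 0 to 58, and the added fit without CTRL replicate 2 on short genes gave 4. In PWOFC against CWOFP flies DESeq2 gave 2 calls, and leaving out 1 library gave 0. For the interaction of rotenone and day, 3 passed without the low count filter, 2 with factors from short genes and 0 with all 18 libraries. In these fits 27.1%, 37.1% and 2.67% of all genes passed. Leaving out 1 library gave 1 to 31 called members. The causes were not tested.

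With the replicate number as a block, PWOFC against PD flies gave 24 calls and PD against CTRL flies 1, where 57.5% and 10.6% of all genes passed. CWFP against CWOFP flies, where same-numbered libraries correlated, kept 0. The median of the members relative to all genes moved by less than the spread between replicates (0.22) in 72 of 72 alternatives that kept every library. This limit is wide: a move from -0.22 to -0.12 with DESeq2 in PWOFC against PD flies was under it. Changes of scaling could barely move this difference. Leaving out 1 library moved it by more in 4 of 61 fits, as in CWFP against CWOFP flies, with 0.31 without CWOFP replicate 1, against 0.061. Of these 61 fits 1 was the added fit without CTRL replicate 2 that also took its factors from short genes.

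RpL32 changed sign with factors from short genes in CWFP against CWOFP flies (-0.086) and in PWOFC against PD flies (0.055), as RpS25 did there (0.18). Leaving out 1 library gave RpL32 -0.043 to 0.35 in CWFP against CWOFP flies, -0.054 to 0.49 in CWOFP against CTRL flies and -0.085 to 0.34 in the interaction of FMT and history. Depth limited the rarest paralogues, which had as few as 2 reads.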
